A study of Mus musculus with 6 samples.

Results

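Chromatin accessibility was examined at 9 genes of the bone matrix, Dcn, Lum, Fmod, Ogn, Omd, Aspn, Sparc, Postn and Bglap, in osteoblasts with and without Fam20c. The genes were listed for their function, and the list was made with earlier results of these data known. Each gene was taken as its RefSeq span on GRCm38 with 20 kb to each side, and peaks of the 6 libraries that shared 1 bp or more were merged into regions. At the 9 genes, among 49939 with a place, lay 47 of the 89410 merged regions.

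The libraries came from OB Fam20c f/f cells, a purchased line of immortalized mouse osteoblasts with floxed Fam20c alleles, labelled as control, and from OB Fam20c KO cells, made from such cells by infection with a Cre recombinase lentivirus and labelled as Fam20c knockout. Both groups were grown in α-MEM with fetal bovine serum, and each had 3 libraries. Whether the control cells received a virus, and whether the KO cells were 1 clone, is not given in the sources used here. Both groups stem from 1 line, so p-values measure the spread between these libraries, which may be technical.

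Fam20c encodes a kinase of the secretory pathway that phosphorylates many secreted proteins, among them proteins of the mineralized matrix. Dcn, Lum, Fmod, Ogn, Omd and Aspn encode small leucine-rich proteoglycans, which bind collagen and shape its fibrils. Sparc (osteonectin) and Postn (periostin) encode matricellular proteins, which modulate how cells interact with the matrix. Bglap encodes osteocalcin, a calcium-binding protein that marks late osteoblasts. ATAC-seq uses the Tn5 transposase, which inserts into open chromatin, so that reads pile up into peaks at promoters and other regulatory DNA.

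The 6 peak lists held 62781 to 74797 peaks in the f/f libraries, 64141 and 64582 in KO replicates 1 and 2, and 32958 in KO replicate 3. KO replicate 3 therefore stood apart, and each result below is given with and without it where it bears on the result. The correlation of the ranks of shared regions, as normal scores, was 0.958 to 0.971 among the f/f libraries, 0.974 between KO replicates 1 and 2, and 0.913 and 0.920 between these and KO replicate 3. Of 8 osteoblast markers 5 to 6 had a peak within 1 kb of an end of the gene span in each library, while Ibsp and Bglap had none there in any library. None of 2 fat markers had such a peak, and of the chondrocyte, muscle, blood and epithelial markers 1 to 2 of 3, 0 to 1 of 2, 1 of 2 and 0 to 1 of 3 did. At Fam20c itself, taken with 3 kb to each side, 1 to 2 regions per library had a peak. None was specific to a group, so the lists do not check the labels.

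The upstream DNA of 4 starts is shown because the lists held different peaks there. A peak lay over the Ogn start in all lists but 1 and over the Sparc start in all 6, the second Postn start had a stronger peak in KO replicates 1 and 2 than in the f/f libraries, and the Bglap start had no peak. Each run is the 250 bases before the RefSeq start, 5′ to 3′ on the strand of the gene, on GRCm38.p6. Capitals mark matches, on either strand, to the TATA motif TATAAA, the CCAAT box, the AP-1 motif TGANTCA, the RUNX motif TGTGGT, the E-box CANNTG and the GC box GGGCGG. Matches may overlap. The stretches are chr13:49607765-49608014 (+) for Ogn, chr11:55420081-55420330 (-) for Sparc, chr3:54360857-54361106 (+) for the second start of Postn and chr3:88384467-88384716 (-) for Bglap.
Ogn: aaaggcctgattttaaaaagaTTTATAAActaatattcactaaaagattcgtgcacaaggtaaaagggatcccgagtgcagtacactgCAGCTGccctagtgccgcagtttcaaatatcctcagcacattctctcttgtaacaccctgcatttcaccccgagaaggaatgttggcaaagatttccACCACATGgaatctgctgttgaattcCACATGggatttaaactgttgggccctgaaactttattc
Sparc: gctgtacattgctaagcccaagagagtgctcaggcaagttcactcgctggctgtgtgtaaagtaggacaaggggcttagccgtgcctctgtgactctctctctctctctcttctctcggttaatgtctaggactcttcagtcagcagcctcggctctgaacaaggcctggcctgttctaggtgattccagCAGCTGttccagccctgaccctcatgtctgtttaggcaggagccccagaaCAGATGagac
Postn, second start: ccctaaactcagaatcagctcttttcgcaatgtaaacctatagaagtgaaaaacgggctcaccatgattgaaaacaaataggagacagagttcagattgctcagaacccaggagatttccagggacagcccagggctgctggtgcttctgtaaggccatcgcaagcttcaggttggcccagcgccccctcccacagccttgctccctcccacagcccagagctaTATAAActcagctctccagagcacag
Bglap: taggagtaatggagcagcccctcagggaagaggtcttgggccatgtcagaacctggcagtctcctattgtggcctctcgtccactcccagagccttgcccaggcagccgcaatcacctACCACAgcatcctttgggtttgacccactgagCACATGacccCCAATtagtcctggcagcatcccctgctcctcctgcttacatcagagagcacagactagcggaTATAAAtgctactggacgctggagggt

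In these windows TATAAA stood 26 to 21 bases before the second Postn start and 27 to 22 bases before the Bglap start. Ogn held it 229 to 222 bases before the start, on both strands. TATAAA was found in 12.4% of the 32851 RefSeq promoters of this length. The Bglap window also held TGTGGT on the opposite strand, 132 to 127 bases before the start, and CCAAT 90 to 86 bases before it, which 14% and 33.8% of all promoters hold. Ogn held TGTGGT on the opposite strand 65 to 60 bases before the start, overlapping an E-box. CANNTG, held by 66.2% of promoters, was found 3 times in Ogn, 2 times in Sparc and 1 time in Bglap. The AP-1 motif and the GC box, held by 6.75% and 32.7%, were found in none of the 8 windows of the 7 genes matched. The promoters of Dcn and Lum were not used here. A match is a stretch of letters and does not show that a factor was bound.

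Across the 9 genes, the KO lists held fewer peaks, and this did not remain when lists of the same length were compared. The regions with a peak numbered 40, 37 and 44 in the f/f libraries and 36, 36 and 20 in KO replicates 1, 2 and 3. Every f/f library was above every KO library. The difference of -9.67 regions had a two-sided exact permutation p of 0.1, the smallest that 20 assignments allow. Without KO replicate 3 the difference was -4.33 (exact permutation p = 0.2). With the 32958 strongest peaks of each list, the numbers were 21, 22 and 20 against 21, 22 and 20, with a difference of 0.

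**Figure D1:**
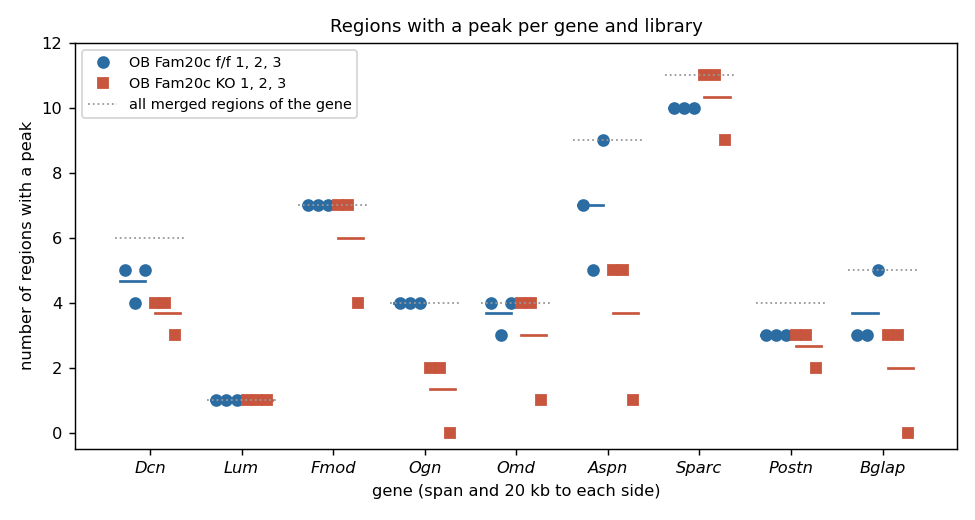
Number of regions with a peak (y axis) for each of the 9 genes (x axis), with blue circles for f/f replicates 1, 2 and 3, red squares for KO replicates 1, 2 and 3 from left to right, short lines for group means and dotted lines for all merged regions of the gene. Ogn had 4 regions in each f/f library against 2, 2 and 0, Aspn 7, 5 and 9 against 5, 5 and 1, and Sparc 10 in each f/f library against 11, 11 and 9; regions between neighbouring genes count for each.

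Of the 47 regions, 18 had a peak in all 6 lists and 13 in all but KO replicate 3. A region was called f/f-only when all 3 f/f libraries and no KO library had a peak there. There were 2 such regions, at Ogn and at Bglap, against 3.75% of all merged regions. None was KO-only, where the background was 0.179%, and 1 region at Sparc had a peak in KO replicates 1 and 2 alone. Without KO replicate 3, 2.93% of all regions had that pattern. With lists of equal length, 1 region was f/f-only and 1 KO-only (Fmod), against 2.83% and 2.6% of all regions. That f/f-only region, chr13:49642426-49643136 past the end of Ogn, was neither of the 2 above. Of the other 13 regions, 3 had a peak in a single library.

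The strength of a region in a list is given as its standing, the percentile of its −log10 q within that list, with 100 the highest. Since the KO replicate 3 list was short, standings were also taken among the 29849 regions that all 6 lists held, here called shared standings, and compared with limma on the normal scores of these ranks. A region was called when its adjusted p (limma, Benjamini-Hochberg over all 29849) was under 0.05. Of the 18 member regions tested, 3 were lower in KO, at Lum, Omd and Sparc, against 10.3% of all regions, and 2 were higher, at Fmod and Sparc, against 12.2%. The median difference of the members was -0.09 in normal score, against -0.02 over all regions. In the fit of 5 lists without KO replicate 3, which took 31 member regions among 46989, 2 were lower (background 7.86%) and 2 higher (8.01%), with a median of 0.03 against -0.01. By fold over background in place of −log10 q, none of the 18 was lower (1.32%) and 1 was higher (1.49%), and 4 of the 18 (22.2%) had an unadjusted limma p under 0.05, against 21% of all regions.

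The standings of the groups did not overlap within the lists at 3 of the 18 regions with f/f higher, against 25.5% of all regions, and at 1 with KO higher, against 3.62%. By shared standings there were 4 in each direction, against 20.9% and 21.1%. No test set these shares, which rest on few regions, against the background. The within-list regions with f/f higher were the Omd start region and a pair at Sparc, 14 kb and 29.9 kb from the start, and the latter was not called (adjusted p = 0.632, limma).

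**Figure D2:**
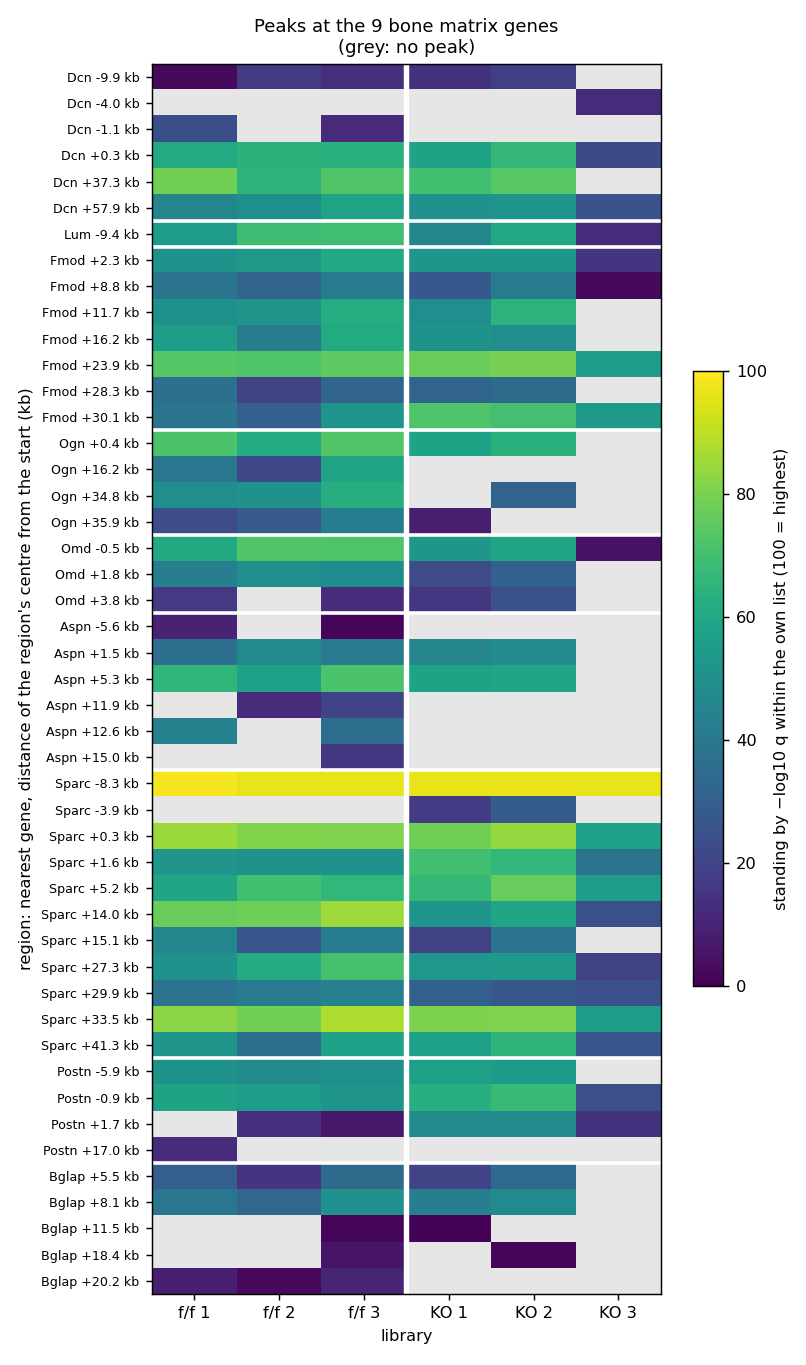
Standing by −log10 q within the own list (colour, 0 to 100) of the 47 regions (rows) in the 6 libraries (columns), with grey for no peak. Rows are named by the nearest of the 9 genes and the distance of the region's centre from the RefSeq start, or for Dcn and Lum from the lower end of the span. The Sparc region at -8.3 kb was above 96 in every library, and the KO replicate 3 column held peaks in 20 regions.

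**Figure D3:**
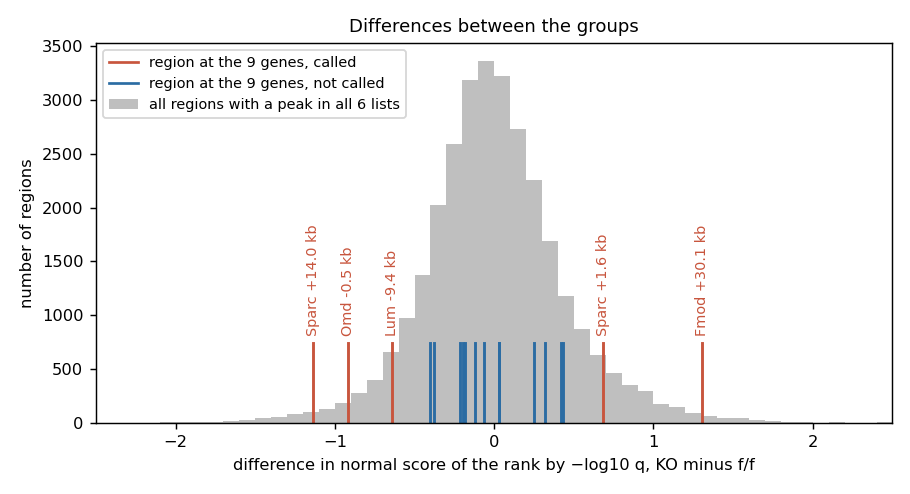
Difference in the normal score of the rank by −log10 q, KO minus f/f (x axis), for all 29849 shared regions (grey bars, number of regions on the y axis) and for the 18 regions at the 9 genes (lines, red where called). Of the 5 called regions, Sparc +14 kb, Omd -0.5 kb and Lum -9.4 kb lie below 0, and Sparc +1.6 kb and Fmod +30.1 kb above it.

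Dcn encodes decorin, which binds collagen fibrils and growth factors. It had 6 regions, of which none was group-only in all 3 libraries and none of the 4 tested was called. The region over the lower end of the span, chr10:97479144-97480368, had standings of 61.3, 64.2 and 63.9 in the f/f libraries and 58.1, 66.7 and 22.2 in KO replicates 1 to 3. The groups overlapped, and the shared standings of 25.9, 29.4 and 21.1 against 19, 30.3 and 16.8 gave an adjusted p of 0.583 (limma). The strongest Dcn region, chr10:97516365-97517158, lay near the other end of the span, with standings of 78.9, 64.6 and 72.9 against 69.7 and 74.1 and no peak in KO replicate 3. It did not pass in the 5 lists (difference 0.03 ± 0.17 (SE), adjusted p = 0.928). A region 784 bp outside the span had a peak in f/f replicates 1 and 3, and one 3820 bp outside it in KO replicate 3.

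Lum encodes lumican, which neighbours Dcn at a distance of 47337 bp and also binds collagen fibrils. Its single region, chr10:97555657-97556551, lay 8950 bp outside the span, and none lay over the gene. Standings were 55.1, 69.1 and 69.3 in the f/f libraries and 46.0, 59.8 and 12 in the KO libraries. KO replicate 2 stood above f/f replicate 1, so the groups overlapped. The shared standings of 19.1, 37.2 and 28.9 against 8.02, 19.8 and 7.63 were lower in KO, by 0.64 in normal score (adjusted p = 0.0432, limma). This call was lost without KO replicate 3, with an adjusted p of 0.266 in the fit of 5 lists and 0.0613 in the fit that kept the shared regions. It was also lost without f/f replicate 2 (0.148), f/f replicate 3 (0.126) or KO replicate 1 (0.109), and by fold (0.114).

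Fmod encodes fibromodulin, a proteoglycan of collagen-rich tissue. It had 7 regions, all with a peak in every list but KO replicate 3, which lacked 3 of them. No peak lay over the Fmod start, and the nearest summits were 2270 to 2326 bp inside the gene in all 6 libraries. That region, chr1:134038965-134040065, had standings of 50.9, 53.6 and 60.5 against 52.6, 53.0 and 15.5 and was not called (adjusted p = 0.231, limma). The region 8.8 kb from the start was called lower only without KO replicate 2 (adjusted p = 0.038, limma). The strongest was a region 12428 bp past the span, over the predicted gene Gm19497, with 73.7, 72.6 and 75 against 77.3, 79.5 and 55.2 (adjusted p = 0.141, limma).

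The largest difference among the 18 regions was at the far end of the Fmod window. The region chr1:134066954-134067744 lay 30.1 kb from the Fmod start and outside every RefSeq span, 6007 bp from Gm19497 and 7121 bp from Btg2, a gene that restrains cell division. Its standings were 38.3, 30.7 and 51.8 in the f/f libraries and 72.5, 70.1 and 53.7 in the KO libraries. Every KO library was above every f/f library. The fold over background was 4.36, 3.11 and 4.62 against 7.76, 7 and 5.45, and shared standings were 7.46, 4.16 and 9.68 against 41.9, 36.6 and 49.3. The difference was 1.30 ± 0.15 (SE) in normal score with an adjusted p of 0.00071 (limma). It held in the 5 lists (adjusted p = 0.00827) and by fold (adjusted p = 0.0494). When each list was limited to its 32958 strongest peaks, this region had a peak in all 3 KO libraries and in no f/f library.

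Aspn, Omd and Ogn lie side by side on chromosome 13, within the span of Cenpp, which encodes a centromere protein. Asporin, osteomodulin and osteoglycin are proteoglycans of bone and tendon, and osteomodulin is found in mineralized matrix. The gaps were 14896 bp between Aspn and Omd and 15402 bp between Omd and Ogn, so some regions count for more than one of them. Together they had 13 regions, of which 11, 9 and 13 had a peak in the f/f libraries and 7, 7 and 1 in KO replicates 1, 2 and 3. The f/f libraries were above the KO libraries in each case.

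**Figure D4:**
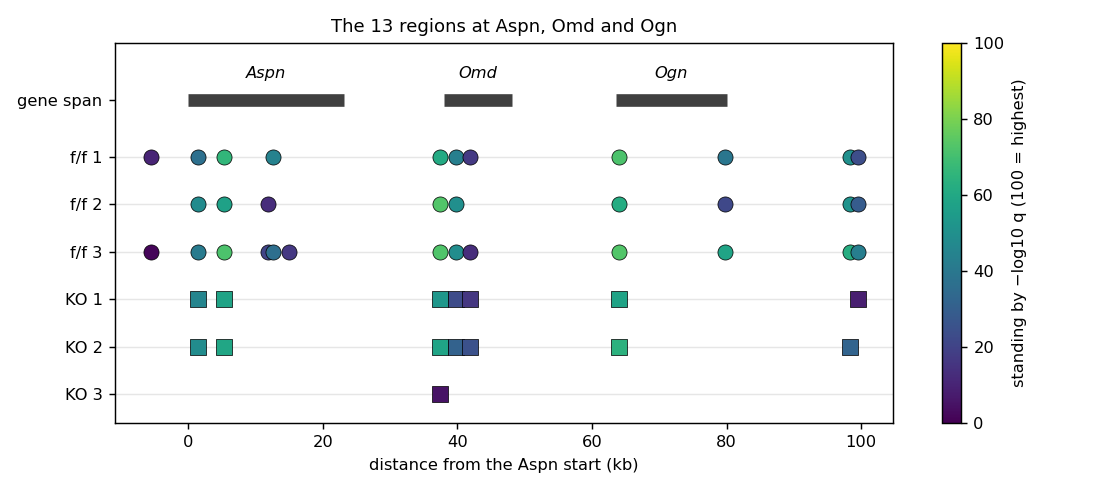
Position of the 13 regions by distance from the Aspn start in kb (x axis) in each library (rows), with circles for f/f, squares for KO, colour for the standing by −log10 q and bars for the gene spans. The f/f libraries had 11, 9 and 13 peaks, and KO replicates 1 and 2 had 7 each. KO replicate 3 had only a peak with its summit 799 bp before the Omd start.

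The peak over the Ogn start, in the stretch printed above, was in the f/f libraries and KO replicates 1 and 2. Its summits lay 113 bp before the start in the f/f libraries and 107 bp before it in the KO libraries. Standings were 71.9, 61.4 and 73.0 against 58.0 and 63.8, with folds of 13.9, 8.56 and 12.9 against 10.6 and 12.8. The groups overlapped in both measures, and the 5 lists gave an adjusted p of 0.297 (limma, difference -0.23).

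The other end of Ogn had a peak in the f/f libraries alone. The region chr13:49623906-49624514, over the end of the span, had standings of 39.2, 21.6 and 58.3 and folds of 7.03, 3.85 and 9.62 in the f/f libraries and no peak in any KO library. It was f/f-only also when peaks needed a −log10 q of 5, but with lists of equal length it had a peak in f/f replicate 3 alone. Farther out, the region chr13:49642426-49643136 had 49.6, 51.5 and 62.4 against 32.0 in KO replicate 2, and chr13:49643689-49644151 had 23.7, 28.6 and 42.4 against 8.35 in KO replicate 1. Each of these thus had a peak in a single KO library, which stood below every f/f library.

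The merged region that covers the Omd start, chr13:49581320-49582539, was lower in the KO libraries. Only in f/f replicates 1 and 3 and KO replicate 2 did the peak itself reach over the start. The summits in this region lay 758 to 819 bp before the start. Standings were 60.7, 72.8 and 72.3 in the f/f libraries and 52.8, 58.3 and 5.02 in the KO libraries, and every f/f library was above every KO library. The difference in normal score was -0.92 (adjusted p = 0.0308, limma), and it was smaller without KO replicate 3. With the shared regions kept it was then -0.61 and still called (adjusted p = 0.0182), and among the regions of the 5 lists it was -0.39 and not called (adjusted p = 0.124). The call was lost without f/f replicate 1 (0.0531), f/f replicate 2 (0.115) or f/f replicate 3 (0.0943). By fold the groups overlapped. Folds were 6.08, 6.58 and 6.64 against 7.42, 7.84 and 3.21, and the percentiles of fold within the lists were 42.1, 61.7 and 53.2 against 53.5, 55.6 and 10.1. The adjusted p by fold was 0.588 (limma).

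Inside Omd, the region chr13:49583942-49584587 had standings of 42.8, 49.3 and 48.6 against 22.8 and 31.1, with no peak in KO replicate 3. It was called lower in the fit of 5 lists (difference -0.64, adjusted p = 0.0396, limma). Folds of 4.41, 4.02 and 4.05 against 3.92 and 4.33 overlapped, as did their percentiles within the lists.

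At Aspn no peak lay over the start. Summits lay 1391 to 1450 bp inside the gene, in a region with standings of 36.4, 47.9 and 41.3 against 45.3 and 48.1, and a stronger region at chr13:49549458-49549950 had 65.8, 57.3 and 71.6 against 58.0 and 59.3. Both lacked a peak in KO replicate 3, and neither was called in the 5 lists (adjusted p = 0.372 and 0.396, limma). A further 4 regions in or before Aspn had a peak in 1 or 2 f/f libraries and in no KO library, with standings of 1.26 to 43.9. None of these 4 had a peak in any library when lists of equal length were compared. No share over all regions is given for this pattern.

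The whole chromosome was lower in the KO libraries by −log10 q. Over all of chromosome 13, 35.3% of the shared regions were lower in KO by limma, against 9.48% on the other chromosomes. Of its merged regions, 8.48% were f/f-only, against 3.56% on the other chromosomes. In the 5 lists, 24.1% against 7.23% were lower. The median difference on chromosome 13 was -0.34 by −log10 q but -0.02 by fold. The share of regions with a peak on chromosome 13 was 75.3%, 74.3% and 89.0% in the f/f libraries and 62.0%, 64.5% and 28.7% in the KO libraries. On the other chromosomes it was 68.7%, 68.6% and 82.4% in the f/f libraries and 69.9%, 71.2% and 36.0% in the KO libraries. Within 500 kb of the 3 genes, with their own regions left out, 12 of 20 shared regions were lower. The median difference there was -0.45 by −log10 q and 0.14 by fold. The part of the chromosome in the values at Aspn, Omd and Ogn was not tested. Why the values of the whole chromosome were lower was not tested either. In a bulk library, fewer cells with open chromatin and less open chromatin in each cell cannot be told apart. The number of DNA copies of the chromosome was not measured here, so lower values there need not mean less open chromatin.

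Sparc encodes osteonectin, which binds collagen and calcium and is abundant in bone. It had the most regions, 11, and the strongest. The region 8.3 kb before the start, chr11:55427875-55428868, had standings of 98.5, 96.3 and 96.7 in the f/f libraries and 96.6, 97.2 and 96.2 in the KO libraries. All 6 lists put it near the top, and it did not differ beyond the spread (difference 0.03 ± 0.15 (SE), adjusted p = 0.917, limma). The region over the start, with summits 156 to 226 bp inside the gene next to the stretch printed above, had 84.9, 81.2 and 80.5 against 78.8, 84.1 and 56.6 (adjusted p = 0.785, limma).

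Inside the gene, Sparc had one region that was lower and one that was higher. The region chr11:55405627-55406597, 14 kb from the start, had standings of 77.2, 77.8 and 85.3 in the f/f libraries and 51.7, 58.8 and 24.6 in the KO libraries. The groups did not overlap. Shared standings fell from 51.9, 53.8 and 63.2 to 12.4, 18.5 and 19.1, a difference of -1.14 ± 0.14 (SE) in normal score (adjusted p = 0.000829, limma). It was called in the 5 lists (adjusted p = 0.0112) but not by fold (0.0951). Folds were 9.31, 7.72 and 10.8 against 7.29, 8.78 and 4.06 and overlapped, while their percentiles within the lists, 67.7, 71.1 and 81.7 against 52.4, 61.9 and 25.7, did not.

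The region chr11:55417875-55419050, 1.6 kb from the start, went the other way. Standings were 52.2, 51.4 and 51.0 against 69.7, 66.2 and 38.7. KO replicates 1 and 2 were above every f/f library, and KO replicate 3 was below them within its own shorter list. Among shared regions, with 16.2, 15 and 9.13 against 36.6, 29.4 and 33.4, all 3 KO libraries were higher (difference 0.68 ± 0.13 (SE), adjusted p = 0.00748, limma). The call held in the 5 lists (adjusted p = 0.0338) and was lost by fold (0.14).

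The Sparc region at chr11:55423827-55424155, 3.9 kb before the start, was seen in KO replicates 1 and 2 alone. Its standings were 17.3 and 29.2 and its folds 2.08 and 2.35, which is low in both lists. Of the other 6 Sparc regions, 5 had a peak in all 6 lists. None of the 6 was called in the fit of 5 lists, and none of the 5 in the fits of 6 lists by −log10 q or by fold. With a library left out, the region 27.3 kb from the start was called lower without f/f replicate 1 (adjusted p = 0.031), that at 29.9 kb lower without KO replicate 3 (0.0065) and that at 5.2 kb higher without KO replicate 1 (0.039, limma).

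**Figure D5:**
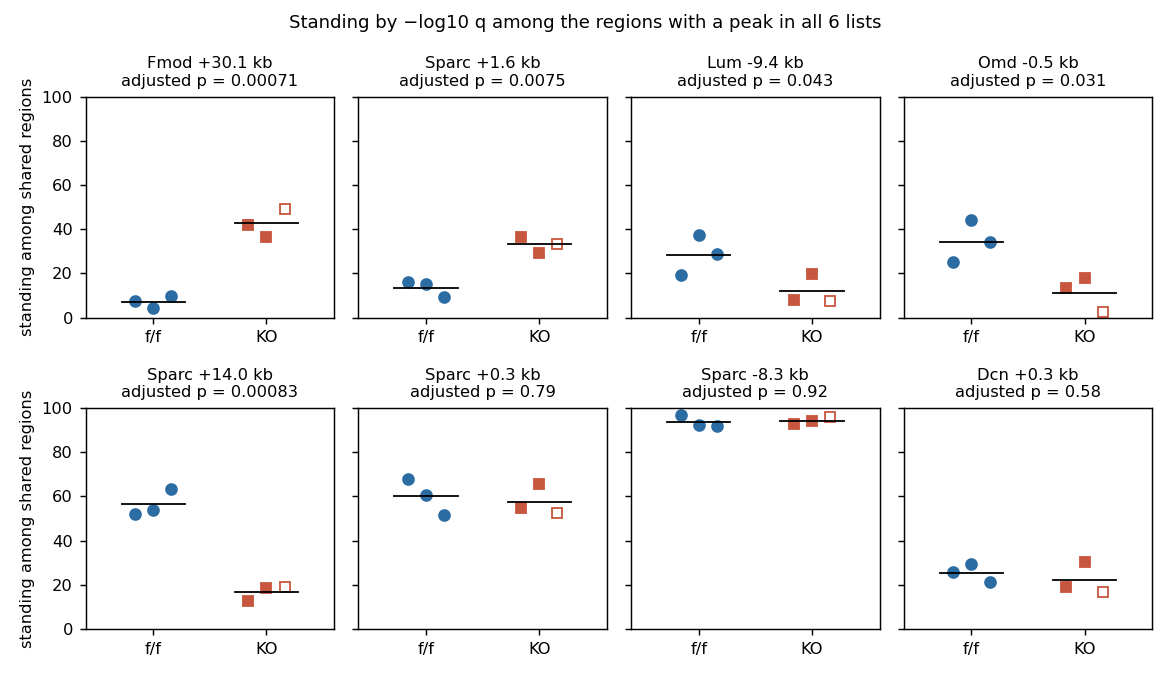
Shared standing by −log10 q (y axis, 0 to 100) of 8 regions in the f/f (blue circles) and KO libraries (red squares, open for KO replicate 3), with lines for group means and adjusted p from limma. Fmod +30.1 kb rose from between 4.16 and 9.68 to between 36.6 and 49.3, Sparc +14 kb fell from between 51.9 and 63.2 to between 12.4 and 19.1, and the Sparc region at -8.3 kb lay between 91.8 and 96.8 in all 6 libraries.

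Postn encodes periostin, a matricellular protein of periosteum and of remodelling tissue. RefSeq gives it a pair of starts, 1840 bp apart. No peak lay over the first, but the region 212 bp before it, chr3:54357621-54359055, had standings of 57.6, 55 and 51.6 in the f/f libraries and 62.7, 67.2 and 24.3 in the KO libraries. KO replicates 1 and 2 were above the f/f libraries and KO replicate 3 was below them, and the region was not called (adjusted p = 0.2 with all lists and 0.147 with 5, limma).

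Over the second start, the region chr3:54360647-54361281 had no peak in f/f replicate 1 and standings of 13.6 and 6.39 in f/f replicates 2 and 3, against 47.4, 47.5 and 14.5 in the KO libraries. The fold was 3.18 and 2.75 in the f/f libraries with a peak and 6.26, 5.82 and 3.57 in the KO libraries. KO replicates 1 and 2 were above the f/f libraries, and KO replicate 3 was close to f/f replicate 2. By the percentile of fold within the lists, f/f replicates 2 and 3 had 17.02 and 6.89 and the KO libraries 44, 40.4 and 16.99, so that the groups overlapped. Summits lay 35 to 115 bp before the start, in the stretch that holds TATAAA. The region had no peak in 1 list, so no fit included it and the difference was not tested. With lists of equal length only KO replicate 3 had a peak there. It overlaps the predicted gene Gm31095 as well.

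Bglap, the osteocalcin gene, had no peak over its start in any library, and none within 4302 bp of its span. The window held 5 regions, and the nearest lay over Bglap2, a near-identical copy of the gene, with standings of 29.8, 15 and 34.4 against 20.4 and 34.3. The strongest, chr3:88376126-88376566 near Bglap2, had 39.2, 32.8 and 50.6 against 42.9 and 47.7. Both were without a peak in KO replicate 3, and neither was called in the 5 lists (adjusted p = 0.7 and 0.264, limma). Reads from Bglap, Bglap2 and Bglap3 may not be told apart, so the absence of a peak at these copies is uncertain. The f/f-only region of the window, chr3:88363840-88364597, lay 18898 bp from Bglap inside Paqr6, with standings of 8.53, 2.62 and 10.4, near the bottom of the lists. It was no longer f/f-only when peaks needed a −log10 q of 5.

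Other genes of the same families were counted as a background from lists named for their function. At 10 other small leucine-rich proteoglycans, the 40 regions that are not at the 9 genes held 1 f/f-only region, in the windows of both Prelp and Optc, and 2 regions seen in KO replicates 1 and 2 alone, at Ecm2 and Podn. Of 14 tested in limma, 1 was called, lower in KO, at Bgn (biglycan). In the 5 lists, 1 of 24 was lower (Prelp) and 1 was higher (Nyx). At 15 other matricellular and bone matrix genes, 76 regions held 2 f/f-only regions, at Smoc2 and Vcan. Of 27 tested, 3 were lower, at Ccn2, Tgfbi and Acan, and 1 was higher, at Thbs2. In the 5 lists 3 of 43 were lower, at Smoc2, Tnc and Tgfbi, and none was called at Ccn2, Acan or Thbs2. These counts stand beside 3 lower and 2 higher of 18 at the 9 genes.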

How the data were processed

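ATAC-seq was performed by the authors on nuclei of each library. They trimmed and aligned the reads (BWA, mm10) and called the peaks of single libraries with MACS2 2.1.2, with 0.05 as the q-value threshold. In the deposited lists the authors give for each peak the fold over the local background at the summit, a ratio, and the −log10 of the q-value, and the summit. Read counts per region were not used here, so group fold changes could not be derived. Read depth did not enter any comparison. The paper lists clean reads per library, and f/f replicate 1 had fewer than KO replicate 3. The lists of 32958 to 74797 peaks limit the precision. A peak that is missing did not pass that threshold and need not mean closed chromatin.

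Groups and replicate numbers came from the labels. Autosomal, X and Y peaks were merged where they shared 1 bp, and a region took the highest value of its peaks in a library. Gene spans and promoters came from RefSeq (GRCm38.p6, the coordinates of mm10); spans carry no exons. Numbers of regions were compared by exact permutation over 20 assignments, and the normal scores of ranks by limma 3.58.1 in R 4.3.3, with Benjamini-Hochberg adjustment at 0.05 over all regions. A second fit left out KO replicate 3. Normal scores were chosen because only the order within a list is comparable between lists. The procedure was run on simulated data. The simulated peak lists were of like length and lost no peaks at a threshold, so that run could not test the effect of a short list. Python 3.11.15 with pandas 2.3.3 and scipy 1.17.1 was used.

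The members and gene lists were chosen with earlier results of these data known. Named were, for each gene, the region over the start or within 1 kb of the span, the region with the highest mean standing, and each group-only or called region; other regions were named to complete a gene. Deviations of same-numbered libraries from their group means correlated at 0.049, -0.12 and -0.14, so the numbers were not taken as pairs. Alternatives were a −log10 q of 5 or more, lists of equal length, an overlap of 50% of the shorter peak, extensions of 3 kb and 50 kb, a peak in at least 2 of 3 libraries, fold in place of −log10 q, shared standings, a replicate block, and each library left out.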

Additional observations from a re-analysis of the deposited data

How the results depend on the processing

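The count of 2 f/f-only regions of 47 became 1 of 30 with lists of equal length, which was a different region at Ogn. It was 1 of 48 with an overlap of 50% of the shorter peak. With extensions of 3 kb and 50 kb it was 1 of 25 and 4 of 75, beside 3.75% of all merged regions. It was 6 of 47 when a peak in 2 of 3 libraries sufficed. Leaving out a library gave 2 to 5, the highest without f/f replicate 2. No share over all regions is given for that rule or for the left-out libraries. The KO-only count of 0 became 1 with lists of equal length and 1 with 2 of 3 libraries, and lay between 0 and 1 with a library left out, 1 without KO replicate 3. The difference in the number of regions, -9.67, was -12.3 to -4.33 with a library left out, and 0 with lists of equal length. With the replicate numbers as a block it was -9.67 (exact sign-flip p = 0.25, the smallest possible), and limma with that block called 3 lower and 2 higher, at the same 5 regions. Over all regions that block called 2692 lower and 3135 higher. It was not run on the 5 lists.

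Non-overlap with f/f higher, 3 of 18 regions, became 8 of 32 at 50 kb, beside 25.5% of all regions. It was 3 to 7 of 18 with a library left out (6 without f/f replicate 1, 7 without KO replicate 2). Non-overlap with KO higher, 1 of 18, became 0 of 10 at 3 kb, beside 3.62%, and 4 of 18 by shared standings, beside 21.1%. It was 2 of 18 by fold and 1 to 4 of 18 with a library left out (4 without KO replicate 3). No share over all regions is given for fold or for the left-out libraries. The 3 regions called lower became 0 by fold and 0 by quantile-normalised log2 fold, where 4 of 18 (22.2%) had an unadjusted limma p under 0.05 in each, against 21% and 21.1% of all regions, and 1 to 4 with a library left out (1 without f/f replicate 2 or 3). The 2 called higher became 1 of 10 at 3 kb and 4 of 32 at 50 kb, beside 12.2% of all regions. The number was 1 by fold, 1 by quantile-normalised log2 fold, and 2 to 3 with a library left out. The causes were not tested. Over all regions limma called 3081 lower and 3637 higher, against 394 and 446 by fold, 514 and 633 by log2 fold, and 1518 to 3982 and 2151 to 4080 with a library left out.

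The alternative fits gave 50 values for the 5 called regions, of which 17 lost the call and none turned its direction. The regions were picked by the main fit and the alternatives reuse its libraries, so an unchanged direction is no independent evidence. Short lists limit what can be seen at weak regions.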
